A study of Mus musculus with 4 samples.

Results

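Non-cycling Lewis lung carcinoma (LLC) cells were the tumor cells that carried tumor transcripts but next to none of 6 mitosis transcripts. LLC is a mouse lung tumor line that grows under the skin of mice, and these tumors were profiled by single-cell RNA sequencing of the 3′ ends of transcripts (SeekOne kit). Members were chosen by their UMI counts. A barcode was a member when it held at least 4000 unique molecular identifiers (UMIs, 1 per captured transcript), at most 20% mitochondrial UMIs and at least 3 UMIs of Rhox5. It also had to hold 0 UMIs of Ptprc plus Csf1r, which mark leukocytes and macrophages, at most 2 of Lum, Islr and Fbn1, which mark matrix-producing cells, and at most 1 of the cycling genes Mki67, Top2a, Cdk1, Ccnb1, Birc5 and Ube2c. Of 55805 barcodes in the series, 6615 met the rule, which took 28.3% of the 23376 LLC barcodes. LLC barcodes with 2 or more UMIs of the cycling genes and at most 2 of the matrix genes are called cycling cells here and numbered 12896. The remaining 3865 were matrix-producing LLC cells.

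All mice were C57/BL6N, 6 to 8 weeks old, and carried a subcutaneous LLC tumor. The non-treated (NT) group was mock treated, and its single library pooled 3 tumors. The radiotherapy (RT) group received 24 Gy in 3 fractions of 8 Gy on days 7 to 9, after tumors had reached a mean of 100 mm3, and gave 3 libraries of 1 tumor each. Tumors were taken 72 h after treatment. The NT library held 1585 members, and RT libraries 1 to 3 held 1294, 1880 and 1856. Their UMIs summed to 11873607 in NT and to 8799177, 16058964 and 13276257 in the RT libraries, and the median member held 6800, 5923.5, 7595.5 and 6182 UMIs in the same order. With 1 NT library there was no spread between untreated tumors, so differences between RT and NT carry no test of the treatment, and treatment and library cannot be told apart.

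A tumor cell outside the cell cycle may have paused briefly, may have lost mitogen signals, or may have stopped for good after damage. Quiescent cells lower the E2F-driven genes of DNA replication and the genes of mitosis, and often carry more of the transcripts for secreted and matrix proteins. Radiation damage stabilises p53, which raises the cyclin-dependent kinase inhibitor p21 (Cdkn1a), and DNA that leaks into the cytosol can switch on type I interferon genes through cGAS and STING. Sterol synthesis is controlled apart from both, by the factor SREBP2, which the protein Insig1 holds in the endoplasmic reticulum when sterols are plentiful.

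The tumor label was carried by Rhox5, a homeobox gene of the placenta and germ line that many tumor lines express, at 1019 CPM (the UMIs of a gene in each 1e6 UMIs summed over the members of a library) in NT and 1278, 1144 and 1199 in RT. Rhox5 was part of the rule, so this level is a description. Krt8, a keratin of simple epithelia that the rule did not use, was found in 92.5% of NT members and in 86.0%, 89.7% and 90.7% of RT members. In immune barcodes (at least 3 UMIs of Ptprc plus Csf1r and fewer than 3 of Rhox5) Krt8 was found in 11.7%, 12.9%, 15.9% and 15.03%. Krt18, its usual partner, was found in only 9.72%, 7.26%, 12.0% and 5.12% of members, against 1.33% or less of immune barcodes. The epithelial adhesion gene Epcam gave 3 UMIs in all members together, while the mesenchymal filament gene Vim stood at 7154 CPM in NT and 5902, 7100 and 7064 in RT. The label therefore rested on Rhox5 and Krt8 more than on Krt18.

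Transcripts that mark other cell types differed between libraries and, for macrophages, were far below the level in immune barcodes. The 13 macrophage markers summed to 70.4 CPM in NT members and to 197, 226 and 228 in RT members, against 29460 CPM in NT immune barcodes and 40110 or more in RT immune barcodes. Csf1r among them was at 0 by the rule, and the most abundant was Cd14 in NT and Lyz2 in each RT library. After each cell was thinned to 4000 UMIs, at least 1 macrophage-marker UMI was found in 15.1% of NT members and in 44.4%, 47.7% and 31.4% of RT members. Fibroblast markers summed to 1312 CPM in NT and to 1791, 1528 and 1825 in RT, mostly Col3a1, while Postn was at 0 in NT and RT2. This was far above immune barcodes, where they summed to 512.6 or less, and Col3a1 was found in 87.3% or more of thinned members. Neutrophil markers summed to 592 CPM in NT and to 801, 691 and 914 in RT, nearly all the chemokine gene Cxcl2, with Retnlg and Csf3r at 0 in NT. Monocyte markers summed to 114, 73.0, 91.4 and 92.0 CPM, of which Thbs1 gave 111, 60.2, 78.5 and 77.3. Lymphocyte markers summed to at most 7.97 CPM, endothelial markers to at most 23.04 and red cell markers to at most 1.12. Of barcodes with at least 3 UMIs of Ptprc plus Csf1r, 14.2% in NT and 17.1%, 12.4% and 18.2% in RT also held 3 or more Rhox5 UMIs. The part of free RNA and of paired cells in the results below was not tested.

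RT library 2 stood apart in its deposited table. It listed 18605 genes, where the others listed 32285, and its barcodes reached at most 11.95% mitochondrial UMIs, where those of the others reached 91% or more. All libraries were joined on the 18605 genes. Barcode sequences were shared between libraries in 182 to 277 cases per pair, and 342 members carried a barcode also seen in another library. Results that turn on RT library 2 are given without it as well.

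The cycling limit was the gate with the most barcodes near it. Members held 0 UMIs of the 6 cycling genes in 4244 cases and 1 UMI in 2371, while 1211 barcodes held 2 and 671 held 3. For Rhox5, 674 members held exactly 3 UMIs and 491 barcodes held 2. For the matrix genes, 885 members held exactly 2 and 533 barcodes held 3. Members within 400 UMIs above the limit of 4000 numbered 547, and 536 barcodes lay within 400 UMIs below it. For Ptprc plus Csf1r, 189 barcodes held 1 UMI and 51 held 2, against 6615 members at 0. Barcodes were thus common on both sides of the cycling, Rhox5, matrix and depth limits and rare past the leukocyte limit.

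The non-cycling share of LLC cells was 28.75% in NT (95% exact binomial interval 27.55 to 29.96, counting error only) and 23.6%, 31.7% and 28.8% in RT libraries 1 to 3. The RT mean was 28.03% ± 4.11 (SD, n = 3), so NT lay inside the RT range. Cycling cells made up 63.4% of LLC cells in NT and 55.4%, 42.2% and 59.8% in RT. Matrix-producing LLC cells made up 7.82% in NT and 21.0%, 26.1% and 11.4% in RT, all above NT, and the 3 shares sum to the whole. With matrix-producing cells left out of the denominator, the non-cycling share was 31.2% in NT and 29.9%, 42.9% and 32.5% in RT, which again left NT inside the RT range. On that base the cycling share was 68.8% in NT and 70.1%, 57.1% and 67.5% in RT, so it was not below NT in every RT library.

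Against cycling cells of the same library, members were set apart first by the genes of replication and mitosis, the contrast on which they had been chosen. A gene was past the size rule when its log2 ratio of CPM + 1 was at least 1 in the same direction in every library. Of 7785 genes tested (mean of at least 10 CPM, the gate genes left out), 44 were higher in members past this rule (0.565%) and 323 were lower (4.15%). Lower genes included 28 of 30 S phase genes (list median of the log2 ratio -2.05) and 32 of 34 G2 and mitosis genes (median -3.66), while the median of all genes was -0.07. Nothing is read from these counts, since the rule used the contrast. Of all genes, 32.1% were higher and 45.9% lower in all 4 libraries.

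The residual levels of these genes differed from gene to gene. The kinetochore gene Nuf2 stood at 2.19 CPM in NT members and 2.84, 1.87 and 4.67 in RT members, against 130 CPM in NT cycling cells and 117, 91.2 and 123 in RT cycling cells. Pclaf, a partner of the replication clamp PCNA, stood at 18.0, 12.8, 8.10 and 20.5 CPM in members against 463, 317, 341 and 363. The clamp gene Pcna itself stayed at 212, 229, 176 and 237 CPM in members, against 730, 669, 598 and 632. Nuf2 and Pclaf were thus nearly lost in members, while Pcna was lower but well detected. After thinning, at least 10 UMIs of the S phase list were found in 10.9% of NT members and 12.7%, 4.41% and 10.6% of RT members, so the 6 cycling genes of the rule did not remove every cell with S phase transcripts. Lmnb1, a nuclear lamina gene, was also past the rule at 20.9, 17.8, 11.5 and 17.3 CPM against 94.95, 74.3, 71.2 and 75.9. The other lowest named genes outside the lists were Pbk, Cep55, Pimreg, Depdc1a, Kif15, Espl1, Ndc80 and Iqgap3, most of which act in mitosis or in the division of the cell.

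Sequences at the start of the mitosis genes were looked up for what they share. The letters CCAAT, read on both strands, occurred in the 250 bases before the start of 24 of the 29 G2 and mitosis genes with a RefSeq promoter (82.8%), against 37.5% of all genes with a promoter. The cell cycle homology core TTTGAA occurred in 8 of 29 (27.6%) against 18.3%. Cyclin B2 (Ccnb2, chr9:70421561-70421651 in GRCm38.p6, minus strand) held 3 CCAAT boxes at close to even spacing, printed 5′ to 3′ on the gene's strand with the motif in capitals, nearest to the start first.
Ccnb2, 21 bases before the start: gtgcgtctacCCAATagtgcgtcag
Ccnb2, 54 bases before the start: tccagtctagCCAATgggttgcgcg
Ccnb2, 87 bases before the start: tacaagccagCCAATcaacgtgcag
A match is a description of letters and does not show binding.

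Several secreted and matrix products were among the genes that were higher in members than in cycling cells. Fn1 (fibronectin) stood at 768 CPM in NT members and 1226, 1046 and 906 in RT members, against 158, 395, 269 and 341 in cycling cells (mean log2 ratio 1.82 ± 0.38, SD over 4 libraries). Cp, the copper-carrying ferroxidase ceruloplasmin, stood at 577, 543, 743 and 667 CPM against 139, 182, 205 and 240 (1.74 ± 0.26). Igfbp4, which binds insulin-like growth factors, stood at 4875, 5686, 8235 and 5862 CPM against 2059, 2288, 2794 and 2750 (1.302 ± 0.195). Members were above cycling cells in every library for each of these. The complement gene C3 (1.74 ± 0.35), the angiotensin precursor gene Agt (2.23 ± 0.63), the matrix genes Thbs1 (1.83 ± 0.24) and Ogn (1.74 ± 0.16) and the phosphodiesterase gene Gdpd2 (2.501 ± 0.144) were also at the upper end, together with Tcp11l2 and Trp53inp2. In cycling cells Gdpd2 stood at 4.575 CPM or less and Agt at 0.509, 6.02, 5.29 and 14.0. Ogn stood there at 6.188 CPM or less, Tcp11l2 at 7.217 or less and Trp53inp2 at 6.023 or less. Gdpd2, Agt, Ogn, Tcp11l2 and Trp53inp2 thus passed the filter on low values through the members.

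Brakes on the cell cycle were mixed. The antiproliferative gene Btg2 was past the rule at 129, 65.2, 100.0 and 92.3 CPM in members against 53.5, 28.0, 36.2 and 36.3. The p27 gene Cdkn1b was higher in every library but not past the rule, at 122, 99.2, 115 and 100.2 CPM against 81.7, 70.5, 73.5 and 76.0. Cdkn1a (p21) lay the other way, at 9.35, 29.4, 21.4 and 23.6 CPM in members against 22.9, 49.4, 48.1 and 39.1 in cycling cells. The members thus held less p21 transcript than cycling cells in all 4 libraries. Cdkn2a (p16) gave 0 UMIs in every member and Cdkn2b (p15) 1 UMI in all members together. Of the p53 targets, 4 of 16 were higher and 10 lower in all 4 libraries (median -0.23), where 32.1% and 45.9% of all genes were.

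Inflammatory and signalling lists lay on the higher side. Myeloid growth factors and chemokines had a median of 0.95 with 9 of 11 genes higher in all 4 libraries, and the monocyte chemokine gene Ccl7 was past the rule. Its neighbour Ccl2, the main monocyte attractant, stood at 4141, 4738, 3731 and 4859 CPM in members against 2300, 2523, 1691 and 2571. Csf1, the macrophage growth factor, stood at 286, 307, 287 and 301 CPM against 165, 230, 202 and 245. Immediate early genes had 16 of 18 higher (median 0.78), with Egr2 and Zfp36 past the rule, and NF-kB feedback genes 13 of 14 (median 0.60). Interferon genes had 26 of 29 higher (median 0.60), with Rsad2 past the rule, and lysosome and autophagy genes 15 of 18 (median 0.56), with the autophagy receptor gene Sqstm1 past it. Each of these shares exceeded the 32.1% of all genes.

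Lists of growth and biosynthesis lay on the lower side. Ribosome biogenesis genes were lower in all 4 libraries for 16 of 16 (median -0.61), cholesterol synthesis genes for 13 of 14 (median -0.77), oxidative phosphorylation genes for 14 of 16 (median -0.38) and DNA repair genes for 16 of 21 (median -0.66), where 45.9% of all genes were. Glycolysis genes were split, with 6 higher and 7 lower of 16. Myc, a driver of growth, did not separate the cells, at 5509, 3589, 2676 and 4566 CPM in members against 3856, 3355, 2770 and 3790.

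**Figure D1:**
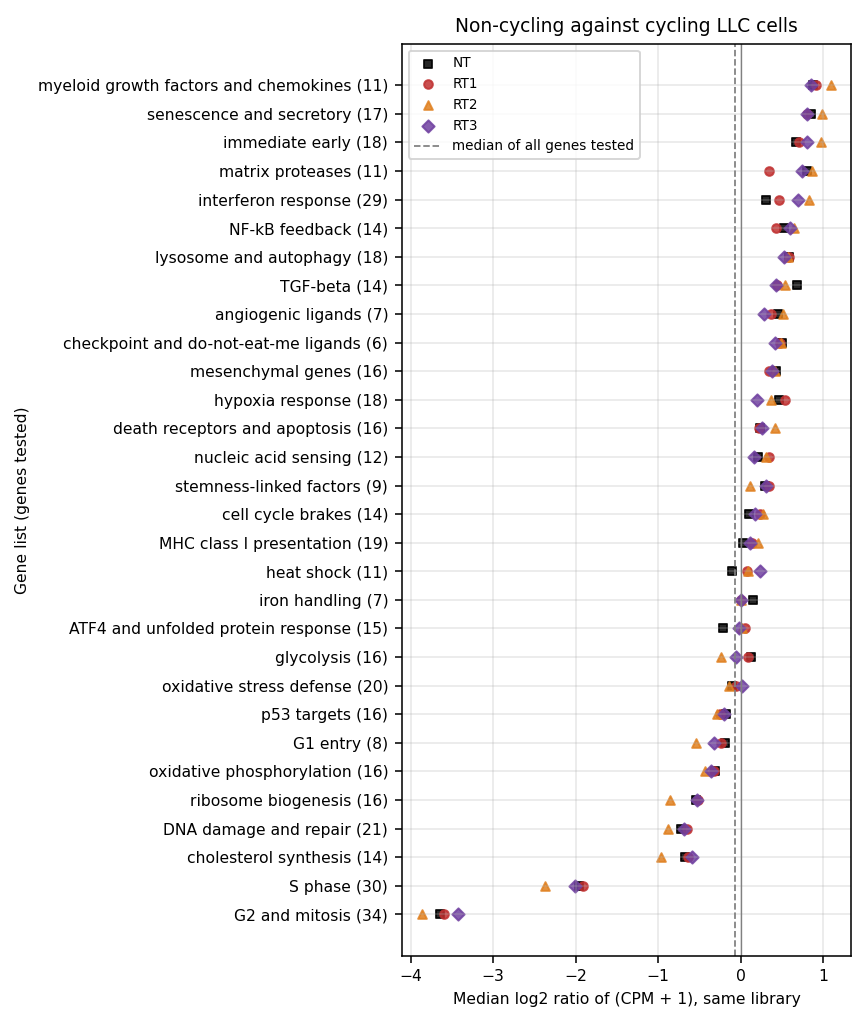
Median log2 ratio of members over cycling cells (x axis) for each gene list with at least 6 genes tested (y axis), with 1 point per library and a dashed line at the median of all genes. S phase and G2 and mitosis genes lie lowest in all 4 libraries, and myeloid growth factors and chemokines lie at the upper end (median 0.95). The points of some lists lie apart. Interferon response has 0.313 in NT and 0.462, 0.833 and 0.7 in RT, and glycolysis 0.128 in NT and 0.094, -0.237 and -0.055 in RT.

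Variation among the members themselves was measured after thinning each to 4000 UMIs, as the Fano factor (variance over mean, which is 1 for counting error alone). Of 1183 genes with a mean of at least 0.5 UMI, the median Fano factor was 1.24. Cxcl10, an interferon-induced chemokine for T cells, had the highest mean Fano factor at 24.4 (16.4 in NT and 29.2, 22.1 and 30.2 in RT). It was found in 36.7% of NT members and in 37.0%, 51.1% and 41.9% of RT members, and the highest cell held 153 UMIs. Rsad2 (viperin, an antiviral enzyme) followed at 21.9, found in only 8.26%, 10.4%, 20.6% and 14.2% of members but with up to 104 UMIs in 1 cell. Both genes thus varied from cell to cell in NT as well as in RT.

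The other genes with high Fano factors fell into a few kinds. Immediate early and stress genes were Ccn1 (15.6), Jun (15.4), Fos (12.1), Dusp1 (9.09), Nfkbia (9.08), Hmox1 (10.7) and the chaperone gene Dnajb1 (8.74). Secreted products were Igfbp4 (14.3), Spp1 (13.3), Ccl2 (12.2) and Cxcl1 (11.7), and growth genes were Odc1 (13.6) and Myc (13.6). The calcium-binding genes S100a6 and S100a4, the ferritin gene Fth1 and Ly6a were also among the 20 highest. Hmox1, the heme-degrading enzyme, differed widely between libraries, with 14.1 in NT and 18.7, 1.87 and 8.30 in RT. Rsad2 also did, from 9.60 in NT to 31.7 in RT library 3. In RT library 2 Hmox1 was nearer to the median of all genes, but its mean there was only 0.229 UMI per cell.

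**Figure D2:**
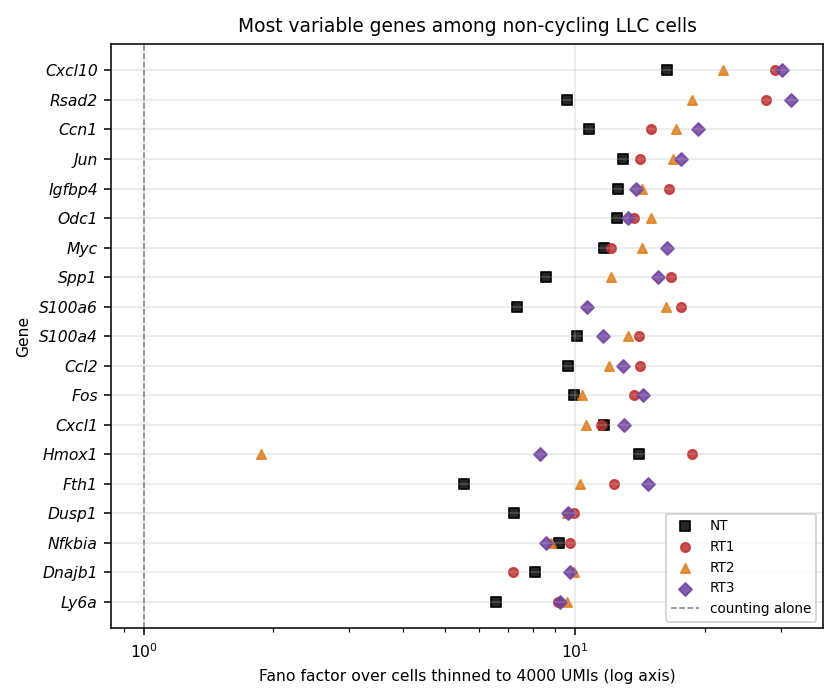
Fano factor (variance over mean of UMIs per cell, cells thinned to 4000 UMIs, log x axis, dashed line at counting error alone) of the most variable genes named in the text (y axis) in each library. Cxcl10 and Rsad2 lie highest by the mean over libraries, though Rsad2 lies at 9.60 in NT, below several other genes, and the median of 1183 genes was 1.24.

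RT was then compared with NT within the members. Of 7605 genes tested, 66 were higher in all 3 RT libraries past the size rule (0.868%) and 11 were lower (0.145%). Without RT library 3 the counts were 180 and 19, without RT library 2 they were 66 and 18, and with a pseudocount of 5 CPM they were 40 and 7. Higher genes below 10 CPM in NT, among them Ccl5, Ctss, Srgn, Agt and Snhg9, passed the filter on low values through RT alone. All 11 lower genes stood at 40.6 CPM or more in NT. The median of all genes was -0.07, and 23.4% of genes were above NT in every RT library and 36.9% below. edgeR's quasi-likelihood test, in which the spread came from the RT libraries and NT was assumed to vary as they do, called 0 genes higher and 0 lower at an adjusted p of 0.05. Its smallest adjusted p was 0.142, and 607 genes were higher and 226 lower at an unadjusted p under 0.05. DESeq2 called 222 and 14, and edgeR without RT library 2 called 115 and 24. Values below are therefore given per library. The mean log2 ratio carries its SD over the RT libraries, and where an interval stands beside an NT value it is an exact Poisson interval for counting error only.

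Sterol genes made up most of the short list of lower genes. Of the 11, 6 were in the cholesterol synthesis list, among them Cyp51, Idi1, Sqle, Msmo1 and Insig1, and Acat2 and Nsdhl also serve sterol synthesis. Of the 14 list genes tested, 13 were below NT in every RT library, where 36.9% of all genes were, and 6 were past the rule, where 0.145% were. The list median was -0.92, with -0.83, -1.50 and -0.75 in RT libraries 1 to 3. The list was chosen with this pattern known.

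Cyp51 (ENSMUSG00000001467), the demethylase of lanosterol, stood at 196 CPM in NT (interval 189 to 205) and at 60.4, 30.0 and 67.0 in RT (mean log2 ratio -1.96 ± 0.62, SD, n = 3). Idi1, the isomerase of the isoprenoid building blocks, stood at 95.7 CPM in NT and 39.9, 12.8 and 43.0 in RT (-1.73 ± 0.94). All RT libraries lay far below NT, and RT library 2 lay lowest for both genes. Squalene epoxidase (Sqle) stood at 111 CPM in NT and 48.9, 19.7 and 52.7 in RT, the sterol oxidase gene Msmo1 at 173 and 78.2, 40.7 and 73.1, and the SREBP anchor gene Insig1 at 102 and 42.5, 31.3 and 49.8. The edgeR adjusted p of these 5 genes ran from 0.201 for Cyp51 and Insig1 to 0.368 for Idi1.

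Other genes of the pathway differed in the same direction by less. Hmgcs1 stood at 126 CPM in NT and 75.5, 43.7 and 80.1 in RT. Srebf2, which encodes SREBP2, stood at 115 CPM in NT and 67.6, 49.5 and 77.4 in RT. Not every sterol gene was lower. Fdps was above NT in every RT library, at 27.6 CPM in NT and 44.8, 36.4 and 31.9 in RT. Ebp, a sterol isomerase outside the list, was past the rule on the higher side at 4.46 CPM in NT and 19.7, 27.2 and 10.02 in RT. It passed the filter on low values through RT alone.

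Per cell, list UMIs were fewer in RT than in NT, and fewer members held a Cyp51 UMI. A lower mean level also lowers the share of cells with a UMI, so the share is not a separate result. After thinning, the 16 list genes gave a median of 4 UMIs per member in NT and 2, 1 and 2 in RT. Members with a Cyp51 UMI were 44.0% in NT and 17.2%, 9.26% and 20.9% in RT.

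Sterol genes were also lower outside the members. The list median of the log2 ratio of RT over NT was -0.99 in cycling cells and -0.99 in immune barcodes of the same libraries, which share the NT library with the members. Cyp51 UMIs were found in 61.8% of thinned NT cycling cells and 28.9%, 19.3% and 30.9% of RT ones, and in 35.4% of immune barcodes in NT and 11.1%, 12.3% and 12.4% in RT. With the ratio of the immune barcodes taken away from that of the members, an alternative added after seeing the data, the list median was -0.05. Immune barcodes numbered 206 in NT and 786, 1500 and 306 in RT. Their MHC class II genes summed to 15450 CPM in NT and to 2931, 4753 and 4155 in RT. They are thus not a matched base for such a ratio, here or below. A difference of whole libraries and one of treatment cannot be told apart for the cholesterol synthesis list.

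**Figure D3:**
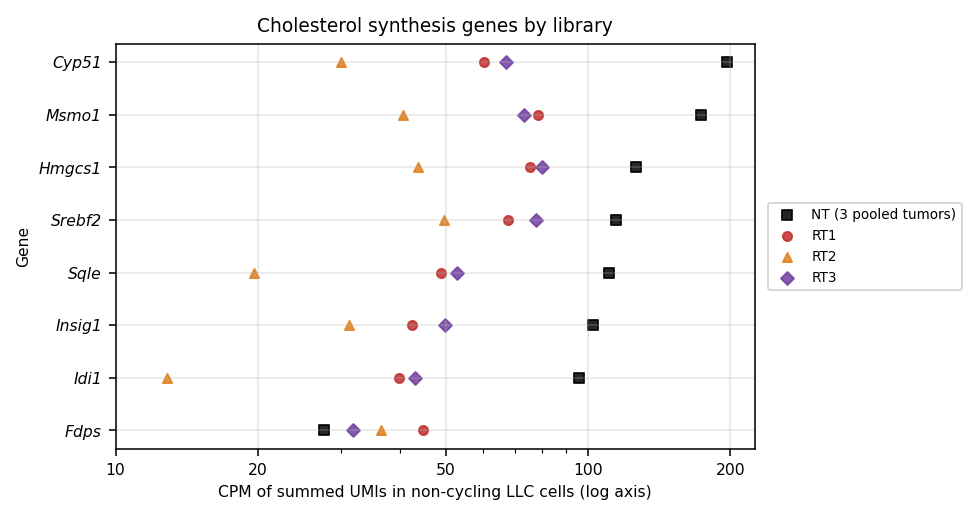
CPM of the cholesterol synthesis list genes named in the text (y axis) in the members of each library, on a log x axis. NT lies above the 3 RT libraries for each gene drawn except Fdps, where it lies below them, and RT library 2 lies lowest for Cyp51, Idi1, Sqle and Msmo1.

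Promoters of the sterol genes share an element that the rule did not use. SREBP2 acts with NF-Y, which binds CCAAT, so both were searched, CCAAT and the sterol element TCACNCCAC on both strands, a choice made after the data were seen. All 9 list genes with a RefSeq promoter held CCAAT in the 250 bases before the start, against 37.5% of all genes with a promoter. The sterol element was found in 1 of 9, Hmgcs1, against 1.22% of all genes. The windows are from GRCm38.p6, 5′ to 3′ on the gene's strand, with the motif or its reverse complement ATTGG in capitals. They lie at chr5:4104712-4104736 for Cyp51 and chr8:64733619-64733643 for Msmo1, both on the minus strand. On the plus strand they lie at chr13:8885551-8885575 for Idi1, chr5:28071186-28071210 for Insig1 and chr13:119690204-119690232 for Hmgcs1.
Cyp51, CCAAT: ctgtccgccaCCAATctggtcctga
Msmo1, CCAAT: gtggggcggaCCAATtacgacaggc
Idi1, CCAAT: cctccagctgATTGGcgagcccggg
Insig1, CCAAT: ccctcctcccATTGGctccggcggc
Hmgcs1, sterol element: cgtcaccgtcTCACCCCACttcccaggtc

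The other lower genes were Rgs16, Spns2 and Vcam1. Rgs16, a brake on G protein signals, stood at 40.6 CPM in NT and 9.77, 9.84 and 17.1 in RT (-1.70 ± 0.43), and its mean ratio was -0.62 in cycling cells and -1.79 in immune barcodes. Vcam1, an adhesion molecule for leukocytes, stood at 145 CPM in NT and 64.6, 70.4 and 67.3 in RT (-1.10 ± 0.06). RT libraries differed little from each other for Vcam1, whose mean ratio was -0.93 in cycling cells and 0.04 in immune barcodes. The sphingosine phosphate transporter gene Spns2 stood at 52.8 CPM in NT and 24.1, 19.1 and 24.3 in RT. With the ratio of immune barcodes taken away, Spns2 was 1 of the 11 lower genes, and the only one, past the rule. Spns2 stood at 1.84 CPM or less in immune barcodes of every library, too low for a ratio there, so nothing is read from this.

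Among the higher genes, the interferon response list had 5 of 29 past the rule (Ifit1, Ifit3, Oasl1, Ifi27 and Zbp1) and 15 above NT in every RT library, against 0.868% and 23.4% of all genes. Oasl1, Zbp1 and Ifit3 lay below 10 CPM in NT and so passed the filter on low values through RT alone. Its median was 0.51, but the libraries differed, with 0.04, 1.15 and 0.37 in RT libraries 1 to 3. Without RT library 2 the median was 0.23. The list median was 0.22 in cycling cells and 0.15 in immune barcodes.

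Ifit1 (ENSMUSG00000034459), which binds foreign RNA ends, stood at 17.9 CPM in NT (interval 15.6 to 20.5) and at 66.9, 130 and 82.0 in RT (2.25 ± 0.49). Oasl1, an oligoadenylate synthetase-like gene, stood at 2.53 CPM in NT (1.70 to 3.61) and 18.6, 31.9 and 16.3 in RT (2.67 ± 0.49). Immune barcodes held 92.9 CPM of Oasl1 in NT and 217.3, 219.5 and 239.9 in RT, and the part of their RNA in the members was not tested. Zbp1, a sensor of Z-form nucleic acid that can trigger necroptosis, stood at 6.40 CPM in NT and 15.5, 35.3 and 14.9 in RT (1.52 ± 0.67). That all 3 genes lay above the NT interval in each RT library follows from the size rule by which they were picked, so nothing is read from it. Ifit3 stood at 9.94 CPM in NT and 24.0, 36.4 and 42.5 in RT, and Ifi27 at 59.9 and 146, 146 and 129. Their edgeR adjusted p ran from 0.179 for Ifi27 to 0.354 for Zbp1.

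Members of the same list did not all lie on that side. Irf1, an interferon-gamma target, was below NT in every RT library, at 1059 CPM in NT and 626, 834 and 822 in RT. Cxcl10 stood at 429 CPM in NT and 674, 981 and 820 in RT, and Rsad2 at 50.7 and 89.9, 249 and 174, both above NT throughout but not past the rule. In immune barcodes the mean log2 ratio of RT over NT was -0.77 for Cxcl10 and -0.99 for Rsad2. For the genes past the rule in members, the ratio there was 1.27 for Oasl1, 0.74 for Ifi27, 0.62 for Ifit3, 0.58 for Zbp1 and -0.095 for Ifit1. The sum of the interferon genes per thinned member showed no common direction, with a median of 9 UMIs in NT and 6, 12 and 7 in RT.

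**Figure D4:**
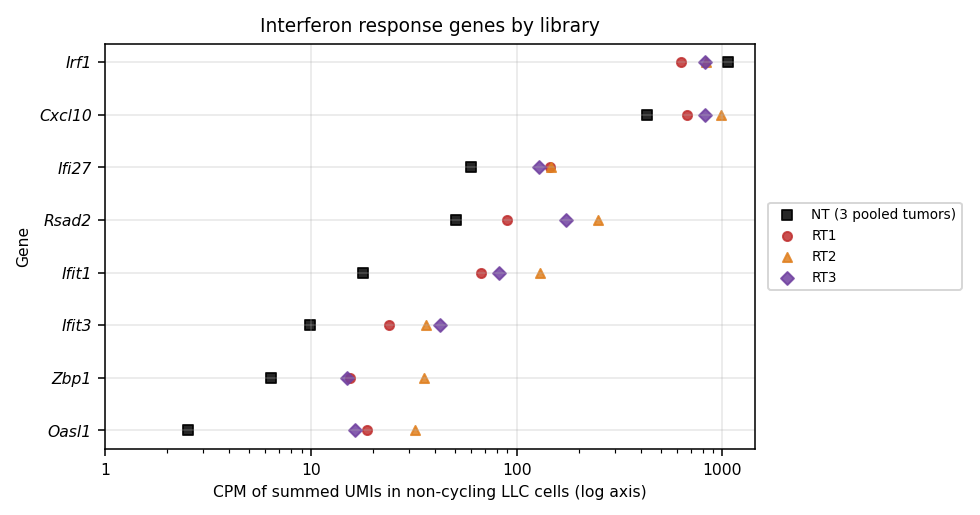
CPM of the interferon response genes named in the text (y axis) in the members of each library, on a log x axis. All RT libraries lie above NT for Ifit1, Ifit3, Oasl1, Ifi27 and Zbp1, and all lie below NT for Irf1.

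The factors that switch on interferon genes bind the interferon-stimulated response element, whose core was searched as GAAANNGAA on both strands. It occurred in 18 of the 30 list genes with a RefSeq promoter, against 8.18% of all genes with one. The windows below are from GRCm38.p6, 5′ to 3′ on the gene's strand with the core or its reverse complement in capitals, for genes that were past the rule or led the variation between cells. They lie at chr19:34640795-34640823 (Ifit1) and chr19:34583398-34583426 (Ifit3) on the plus strand, and at chr5:92349084-92349112 (Cxcl10) and chr12:26456553-26456581 (Rsad2) on the minus strand.
Ifit1, 84 bases before the start: cagtctcagtTTCAGTTTCtcactgctga
Ifit3, 121 bases before the start: ttaagtctgtTTCAGTTTCtactttcctc
Cxcl10, 213 bases before the start: tcacgctttgGAAAGTGAAacttacctca
Rsad2, 119 bases before the start: tggtccaactTTCATTTTCagaaaacaga
Ifit1 and Ifit3 carried the same 9 letters. Of the other genes past the rule, the Oasl1 window did not hold these letters, and Ifi27 and Zbp1 were not searched.

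Antigen presentation split by library. MHC class I genes had a median of 0.08, with 0.52 in RT library 2 and -0.07 in each of the others. Psmb9, an immunoproteasome subunit, stood at 12.8 CPM in NT and 30.2, 91.4 and 20.04 in RT, and H2-T23 at 23.8 and 58.1, 114 and 35.2. The class II gene H2-Ab1 stood at 17.5 CPM in NT and 9.21, 49.0 and 11.8 in RT. RT library 2 was above the other libraries for each of these. Cd274, which encodes the checkpoint ligand PD-L1, stood at 23.2 CPM in NT and 15.2, 41.8 and 23.7 in RT, with NT inside the RT range.

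p53 targets had 2 of 16 genes past the rule on the higher side, 9 above NT in every RT library and 3 below (median 0.19), where 23.4% of all genes were above and 36.9% below. Cdkn1a stood at 9.35 CPM in NT (7.69 to 11.3) and 29.4, 21.4 and 23.6 in RT (1.31 ± 0.23), and passed the filter on low values through RT alone. The stress gene Sesn1, an inhibitor of mTORC1, stood at 16.8 CPM in NT and 48.2, 50.2 and 38.3 in RT (1.38 ± 0.21). Both were picked for lying past the size rule in every RT library, so their place above NT is a description. Mdm2, the ligase that limits p53, stood at 63.4 CPM in NT and 83.8, 72.1 and 93.3 in RT, and Gdf15 at 11.8 and 16.4, 21.3 and 16.9. Immune barcodes held 254 CPM of Cdkn1a in NT and 1179, 1740 and 1074 in RT, and the part of their RNA in the value of the members was not tested.

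Lists of G1 entry, glycolysis and NF-kB feedback had medians below that of all genes, while the median of oxidative phosphorylation was 0.03. G1 entry genes were lower in every RT library for 6 of 8 (median -0.38), glycolysis genes for 11 of 16 (median -0.49) and NF-kB feedback genes for 11 of 15 (median -0.39), against 36.9% of all genes, with none past the rule. Relative to immune barcodes, the glycolysis median turned to 0.057. Ccnd1 (cyclin D1) stood at 231 CPM in NT and 145, 158 and 156 in RT, and Myc at 5509 and 3589, 2676 and 4566. The glycolytic enzyme gene Ldha stood at 895 CPM in NT and 691, 510 and 610 in RT, and Pgk1 at 2107 and 1746, 826 and 1408. The NF-kB inhibitor gene Nfkbia stood at 6562 CPM in NT and 4827, 4745 and 5528 in RT. Replication and mitosis lists had medians of -0.20 and -0.13, beside -0.07 for all genes. In RT libraries 1 to 3 the replication medians were 0.027, -0.676 and -0.025. The mitosis medians were 0.108, -0.391 and 0.199. Only RT library 2 thus lay below the median of all genes for these lists.

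Of the signals from tumor cells to myeloid cells, Csf1 and Ccl2 were close to NT in the members. Csf1 stood at 286 CPM in NT and 307, 287 and 301 in RT, and Ccl2 at 4141 and 4738, 3731 and 4859. The neutrophil chemokine gene Cxcl1 stood at 6875 CPM in NT and 4890, 5417 and 6390 in RT. Spp1 (osteopontin) was above NT in every RT library, at 3569 CPM in NT and 5701, 4028 and 4844 in RT. Csf1 was found in 57.9% of thinned NT members and in 60.2%, 57.2% and 57.4% of RT members, against 9.80% or less of immune barcodes. In cycling cells it was above NT in every RT library, found in 42.0% in NT and 51.5%, 46.8% and 51.7% in RT. Ccl2 was found in 91.9% of cycling cells in NT and 92.0%, 87.9% and 94.1% in RT.

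**Figure D5:**
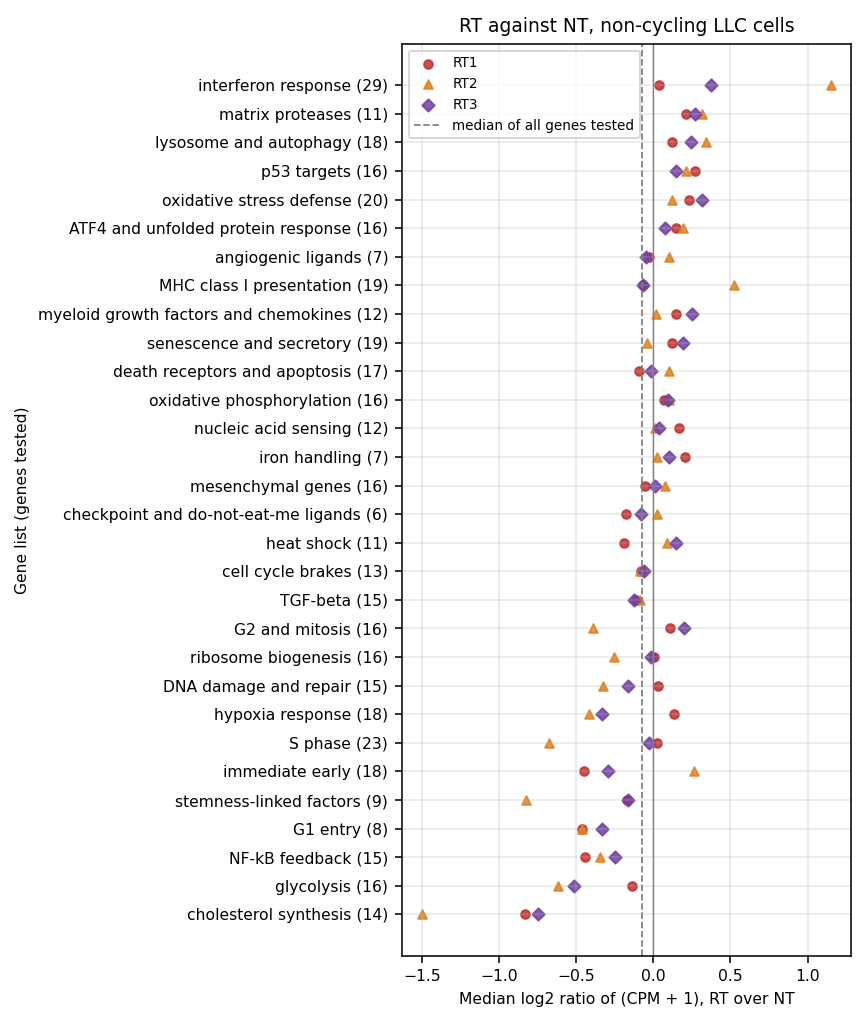
Median log2 ratio of RT over NT in the members (x axis) for each gene list with at least 6 genes tested (y axis), with 1 point per RT library and a dashed line at the median of all genes. Cholesterol synthesis lies lowest of the tested lists by its mean (median -0.92), and RT library 2 stands apart from the other RT libraries for interferon response and MHC class I presentation.

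Further genes were past the rule on the higher side. Ramp2, a partner of the adrenomedullin receptor, stood at 14.7 CPM in NT (12.6 to 17.0) and 79.0, 178 and 56.7 in RT (2.58 ± 0.84). After thinning it was found in 5.05% of NT members and 21.2%, 37.6% and 15.8% of RT members, against 2.27% or less of immune barcodes. Its share in members exceeded that in cycling cells, where it was 2.77% in NT and 8.88%, 13.0% and 6.74% in RT. Ier3, a stress-induced survival gene, stood at 202 CPM in NT and 845, 973 and 561 in RT (1.93 ± 0.41). Agt stood at 8.42 CPM in NT and 22.2, 45.9 and 46.8 in RT (1.99 ± 0.60). The ferritin heavy chain gene Fth1 stood at 3044 CPM in NT and 8171, 8669 and 7837 in RT (1.43 ± 0.07), and S100a4, linked to motility, at 3977 and 8957, 9424 and 8078 (1.15 ± 0.11). Snhg9, a noncoding host gene of small nucleolar RNA, stood at 3.87 CPM in NT and 21.8, 18.6 and 15.1 in RT, and Pttg1ip at 39.2 and 185, 171 and 98.9. Agt and Snhg9 passed the filter on low values through RT alone.

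Many of these ratios were found in other cells of the same libraries. Fth1 had a mean log2 ratio of 1.35 in cycling cells and 1.21 in immune barcodes, Ier3 1.598 and 1.926, and Lgals3bp, past the rule in members at 1.93, had 1.68 and 2.03. The mitochondrial ribosome gene Mrpl33 (1.94 in members) had 1.87 and 1.46, and the ribosomal protein gene Rpl9 (1.75) had 1.84 and 1.14. Higher genes were also short, with a median transcript length of 1698 bases against 3197 for all genes, and 36 of 66 were among the shortest 20% of genes. The part of transcript length in the ratios was not tested. With the ratio of immune barcodes taken away, 9 of the 66 genes were past the rule. They were Ccl5, Ifit1, Ccl4, Lyz2, Ctss, Fcer1g, Srgn, Tmsb4x and Immp2l, and most of these are leukocyte genes. Immp2l stood at 2.99 CPM or less in immune barcodes of every library, too low for its ratio there to be read.

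Of the 66 higher genes, 11 were at least 10 times higher in immune barcodes than in members. They were Lyz2 (lysozyme), Ctss (cathepsin S), Fcer1g, Srgn, Tmsb4x, Wfdc17, Oasl1, Cdkn1a and the chemokine genes Ccl8, Ccl6 and Ccl4. Lyz2 stood at 20.7 CPM in NT members and 83.0, 81.8 and 94.9 in RT members, against 15310 in NT immune barcodes and 21270 or more in RT ones. The ratio of Ctss to Lyz2 was 0.280, 0.319, 0.333 and 0.299 in members and 0.338, 0.334, 0.319 and 0.355 in immune barcodes. In RT, Ccl8 had 0.216, 0.251 and 0.153 in members against 0.250, 0.191 and 0.251, and C1qb had 0.134, 0.247 and 0.105 against 0.139, 0.198 and 0.152. Srgn had 0.248, 0.222, 0.150 and 0.228 in members against 0.116, 0.0706, 0.0846 and 0.0711, and Tmsb4x had 1.56, 1.03, 1.49 and 0.870 against 0.517, 0.339, 0.452 and 0.406. The ratio to Lyz2 was thus of similar size in both populations for Ctss. For Ccl8 and C1qb the members lay on both sides of the immune barcodes in RT. It was higher in members in every library for Srgn, Tmsb4x, Ccl4, Fcer1g, Ccl6 and Wfdc17. In RT, Ccl4 had 0.429, 0.307 and 0.299 in members against 0.173, 0.178 and 0.196, and Fcer1g had 0.242, 0.266 and 0.237 against 0.145, 0.168 and 0.158. Ccl5, a T cell and macrophage chemokine, stood at 6.74 CPM in NT and 36.7, 40.0 and 47.1 in RT (2.44 ± 0.18), and passed the filter on low values through RT alone. Its ratio to Lyz2 was 0.325, 0.442, 0.489 and 0.496 in members and 0.0172 or less in immune barcodes. The part of immune RNA in these values was not tested. After thinning, Ccl5 was found in 1.45% of NT members and 3.55%, 4.47% and 4.80% of RT members.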

How the data were processed

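Per the labels, libraries were made with the SeekOne 3′ kit, and the submitters' processing notes name STAR 2.5.1b, featureCounts, Subread 1.6.4, Cell Ranger and the builds GRCm39 and mm39. The deposited values are UMI counts per gene and barcode, which the authors had not normalized. Members, cycling cells and immune barcodes were taken by fixed UMI limits, and no doublet caller was run. Counts were summed per library and class and scaled to CPM, with a pseudocount of 1 CPM. Genes were tested when the mean of NT and the RT mean was at least 10 CPM. Of genes past the size rule, the text names the 15 with the largest ratios in each direction and any in a list, or 10 in each direction against cycling cells. Some genes were named beyond this after their values were seen (Ebp, Ccl4, Fth1, S100a4, Rpl9, Immp2l, Tmsb4x, Srgn). Members and lists were chosen with earlier results of these data known. edgeR 4.0.16 and DESeq2 1.42.0 ran in R 4.3.3, and other steps in Python 3.11.15. The scripts were tested on simulated data. Promoters were RefSeq windows of GRCm38.p6, matched by symbol to 9 of 16 cholesterol, 30 of 42 interferon and 29 of 36 mitosis genes. Intervals cover counting error only, and replicate p-values measure only the spread between these libraries. Some genes of the lists and among those past the naming rule are not reported here, but counts and medians include them.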

Additional observations from a re-analysis of the deposited data

Results flagged for a closer look

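Of 434 list and named genes tested in both classes, 3 had all 3 RT libraries above NT in members and all 3 below NT in cycling cells, and the difference was not tested. Raet1e, a ligand of the killer cell receptor NKG2D, stood at 21.0 CPM in NT members and 23.2, 27.5 and 23.7 in RT members (mean log2 ratio 0.228), with a mean ratio of -0.108 in cycling cells. The stress gene Ddit4 had a mean log2 ratio of 0.154 in members and -0.257 in cycling cells. Xbp1, a factor of the unfolded protein response, had 0.13 in members and -0.15 in cycling cells. Both cell classes came from the same NT library, so a shift of that library alone would enter both ratios. At least 1 RT value of each gene lay inside the counting interval of its NT value in members, such as 23.2 CPM for Raet1e in RT library 1 (NT interval 18.4 to 23.7).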

How the results depend on the processing

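The NT library has no spread, and its label carries no replicate number. No paired analysis was possible because NT was 1 library. The RT minus NT difference in the non-cycling share (-0.716 percentage points) stayed within the RT spread under every alternative run, but its direction turned in several. It was 0.909 with at least 5 Rhox5 UMIs, 0.248 without likely multiplets and 2.23 in thinned cells, and ran from -2.56 without RT library 2 to 1.5 without RT library 1. The counts of 66 higher and 11 lower genes became 40 and 7 with a pseudocount of 5 CPM, 26 and 7 with a mean of at least 50 CPM, 359 and 117 with a log2 ratio of at least 0.5, and 122 higher with a mean of at least 1 CPM. They ran from 66 to 180 higher and from 13 to 19 lower when 1 RT library was left out, with 180 and 19 without RT library 3 and 18 lower without RT library 2. Relative to immune barcodes, an alternative chosen after seeing the data, 141 genes were lower, and the medians were -0.053 for cholesterol synthesis, 0.057 for glycolysis and -0.997 for fibroblast markers, the last 2 with the sign turned. The median of the stemness-linked factors turned to 0.025 with a mean of at least 50 CPM. Without likely multiplets, 53 of the 66 higher and 9 of the 11 lower genes remained. Against cycling cells, 44 higher genes became 78 with TMM factors and 20 with a mean of at least 50 CPM, where 323 lower became 106. The edgeR counts of 0 and 0 became 222 and 14 with DESeq2 and 116 and 13 with no filter beyond 1 UMI, and ran from 0 to 115 higher and from 0 to 24 lower when 1 RT library was left out, with the upper values without RT library 2. The cause of these differences was not tested. For the 15 higher genes with the largest ratios and the 11 lower genes, 415 of 415 values kept their direction under the other alternatives. These do not include the one relative to immune barcodes. The genes were picked for lying past the size rule in every RT library. The kept direction follows largely from that choice, so nothing is read from it.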
